A study of Mus musculus with 16 samples.

Results

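A set of 10 genes of the bone morphogenetic protein (BMP) pathway were followed by symbol in fetal mouse lung. They were 3 ligands (Bmp4, Bmp5 and Bmp7), 5 inhibitors or modulators (Bmper, Nog, Grem1, Bambi and Smad6) and 2 targets (Id1 and Id3). All 10 were found among the 57180 genes counted, and all 10 passed the filter on low counts. Lungs came from fetuses at E14.5 (embryonic day), given as male in the design text, of 2 inbred strains, C57BL/6J (shortened to B6) and A/J. The dams were given BMS493, which holds every type of retinoic acid receptor in its inactive state (an inverse agonist), by mouth at 3.75 µg/g/day from E9.5 to E14.5, or corn oil as control. Each of the 4 groups (B6 control, B6 BMS493, A/J control, A/J BMS493) held 4 libraries of poly(A)-selected RNA. Litters and any pooling of lungs are not stated in the labels, so p-values measure the spread between these libraries.

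BMPs are secreted ligands that bind pairs of type I and type II receptor kinases, which phosphorylate SMAD1, SMAD5 and SMAD9. These enter the nucleus with SMAD4 and switch on targets such as the Id genes, whose products hold back basic helix-loop-helix transcription factors. Secreted antagonists bind the ligands outside the cell, while Bambi, a decoy receptor without a kinase, and Smad6, an inhibitory SMAD, act as feedback brakes. In the branching lung Bmp4 is known for its expression at distal epithelial tips, Bmp5 and Bmp7 are expressed more broadly, and the antagonists limit where the signal acts.

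Between 15207539 and 24146224 fragments were assigned to genes in each library. As a check of the treatment, Cyp26b1, Dhrs3 and Rarb, all known to be induced by retinoic acid, had log2 fold changes with BMS493 of -3.96, -1.69 and -1.29 averaged over the strains (adjusted p = 8.32e-10, 8.32e-10 and 4.76e-06). Lung markers were present throughout, with Nkx2-1 between 161.5 and 312.5 CPM (counts per 1000000 assigned to genes) and Tbx4 between 200.4 and 279 CPM. The thymus list summed to at most 0.393 CPM and the liver list to at most 12.5 CPM. The heart list summed to 76.2 to 90.4 CPM in control and 39.3 to 86.1 CPM in BMS493 lungs of B6, and to 41.5 to 76.2 CPM and 57.4 to 76.2 CPM in those of A/J, with Nppa at 0 throughout. B6 BMS493 replicate 3 stood apart. Its median absolute deviation from the other 3 libraries of its group was 0.240 on the log2 scale over all tested genes and 0.344 over the 10 members. The other 3 libraries of that group had 0.134 to 0.174 over all genes and 0.169 to 0.219 over the members. A/J control replicate 4 was also the farthest of its group, at 0.181 over all genes against 0.107 to 0.144 and at 0.230 over the members against 0.0637 to 0.121. Results that rest on B6 BMS493 replicate 3 are given with and without it, and leaving out A/J control replicate 4 changed 1 member call, that of Id1 averaged over the strains. In bulk RNA, fewer cells of a type and less RNA per cell cannot be told apart.

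Levels were compared between genes as fragments per kilobase of exon per 1e6 fragments, abbreviated FPK below and taken from both strand columns. In B6 controls Id3 was highest at 88.4 ± 6.31 FPK (SD, n = 4), followed by Id1 at 42.2 ± 5.63. The ligands Bmp5 at 24.3 ± 1.16 and Bmp4 at 23.9 ± 3.68 came next and did not differ beyond their spread. The place of Bmp5 depends on the strand columns, which also hold fragments shared with an opposite gene (described with Bmp5). Without strand Bmp5 was at 12.3 ± 0.620 FPK, below Bmp4 at 23.0 ± 3.50 and Smad6 at 15.8 ± 0.551. It did not differ from Bambi, at 12.9 ± 0.321, beyond its own SD. Smad6 at 15.8 ± 0.556, Bambi at 12.9 ± 0.321 and Bmper at 9.29 ± 0.606 FPK followed. Nog at 5.73 ± 0.702 and Bmp7 at 5.64 ± 0.451 FPK were again within their spread of each other. Grem1 was lowest at 0.316 ± 0.126 FPK and had 14 to 86 counts per library, where the other members had at least 147. In A/J controls Bmp7 reached 9.18 ± 0.661 FPK, above Nog at 5.99 ± 0.903 and within the spread of Bmper at 8.73 ± 0.766.

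**Figure D1:**
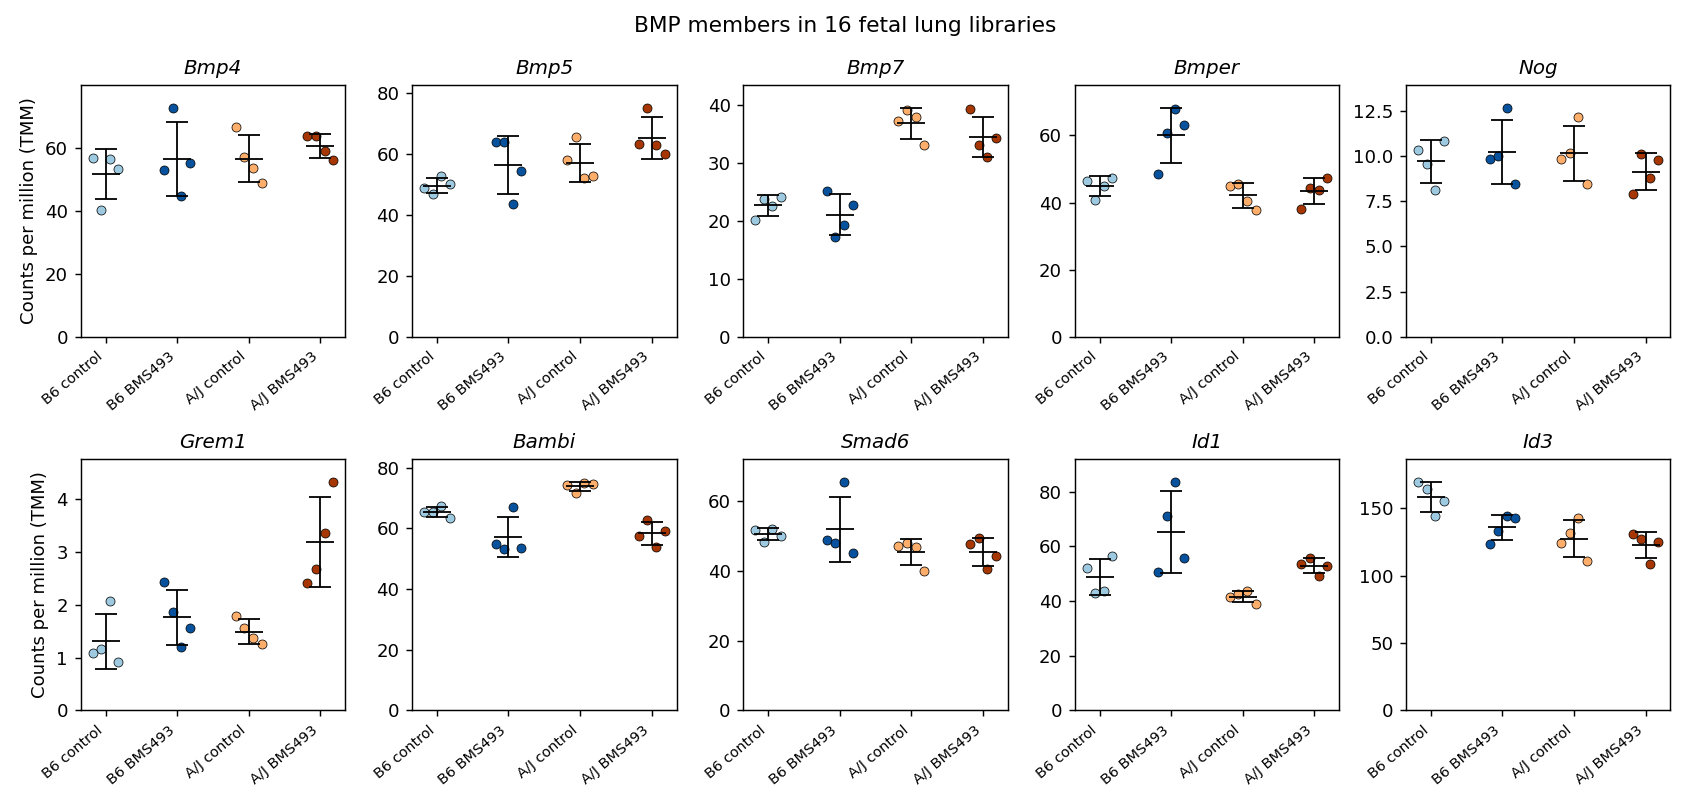
CPM (TMM scaling, linear axes from 0) of the 10 members in each of the 16 libraries, by strain and treatment. Points are libraries and bars are the mean ± SD of 4. Bmp7 is higher in all 8 A/J libraries (31.1 to 39.2) than in the 8 B6 libraries (17.3 to 25.1), and Bambi is lower in A/J with BMS493 (53.8 to 62.8) than in A/J controls (71.6 to 74.8).

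The ligands were compared first. Bmp7, which signals through the same SMADs as Bmp4 and is widely expressed in developing epithelia, was called between the strains and not between treatments. It measured 20.1, 23.8, 22.7 and 24.1 CPM in B6 controls and 37.3, 39.2, 37.9 and 33.1 CPM in A/J controls. With BMS493 it measured 25.1, 17.3, 19.3 and 22.7 CPM in B6 and 39.2, 33.1, 31.1 and 34.4 CPM in A/J. Every A/J library was above every B6 library. The log2 fold change of A/J against B6 was 0.70 (SE 0.10, adjusted p = 1.37e-05) in controls, 1.63-fold, and 0.71 (SE 0.10, adjusted p = 1.36e-05) with BMS493. Both calls held in all 8 leave-one-out fits and in the other alternatives run. Reads of both strains were aligned to the mouse reference, which is a C57BL/6J genome, and its part in differences between strains was not tested. With BMS493 Bmp7 moved by -0.10 (SE 0.10) in B6 and by -0.10 (SE 0.10) in A/J, neither of which was called (adjusted p = 0.809 and 0.999).

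Bmp4, the ligand of the distal tips, was called in no comparison. In controls it ranged from 40.2 to 56.9 CPM (B6) and from 49.0 to 66.6 CPM (A/J), and with BMS493 from 44.6 to 72.7 CPM (B6) and from 56.0 to 63.9 CPM (A/J). All 4 ranges overlapped. The highest value, 72.7 CPM, was that of B6 BMS493 replicate 2. In that library the distal epithelium list, which includes the surfactant gene Sftpc, also reached its highest sum of 2739 CPM, against 1230 to 2039 CPM in the other 15; its part in the Bmp4 value was not tested.

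Bmp5, a ligand of the subgroup that also holds Bmp7, needed a check of the counting. It shares 46.7% of its exon bases with Gm26903 on the opposite strand, and the count without strand kept 53.2% of the fragments that the strand columns together gave it. From both strand columns Bmp5 in controls measured 97.7 ± 4.66 CPM (B6) and 102.9 ± 8.46 CPM (A/J), and with BMS493 112.5 ± 17.1 CPM (B6) and 117.1 ± 8.63 CPM (A/J; SD, n = 4 each). Without strand its log2 fold change with BMS493 was 0.19 in each strain and 0.19 (SE 0.07, adjusted p = 0.281) averaged over the strains. The value in B6 was 0.29 without B6 BMS493 replicate 3 (adjusted p = 0.199). The averaged difference passed without the filter (adjusted p = 0.0352) and without B6 BMS493 replicate 3, where it was 0.24 (adjusted p = 0.0306). That library had the lowest Bmp5 value of the B6 BMS493 group, 43.5 CPM against 54.3 to 63.8.

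Of the 6 members called in at least 1 comparison, Bmper, Grem1 and Id3 had an entry in the RefSeq promoter table, build GRCm38.p6, and Bmp7, Bambi and Id1 did not. The 250 bases before the start of those with an entry are shown so that called inhibitors and a called target can be seen beside their values. The windows are Bmper at chr9:23222826-23223075 on the plus strand, Grem1 at chr2:113758649-113758898 on the minus strand and Id3 at chr4:136143572-136143821 on the plus strand. Each is written 5′ to 3′ in the direction of the gene, with capitals for matches on either strand to GGCGCC and CAGAC, which SMAD proteins are known to bind, and to AGGTCA and AGTTCA, which nuclear receptors including retinoic acid receptors are known to bind.
Bmper: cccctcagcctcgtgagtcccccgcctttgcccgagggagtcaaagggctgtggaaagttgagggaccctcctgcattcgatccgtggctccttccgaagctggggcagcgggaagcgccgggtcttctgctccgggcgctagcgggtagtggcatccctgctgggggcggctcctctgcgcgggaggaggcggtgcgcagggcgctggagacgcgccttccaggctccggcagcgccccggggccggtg
Grem1: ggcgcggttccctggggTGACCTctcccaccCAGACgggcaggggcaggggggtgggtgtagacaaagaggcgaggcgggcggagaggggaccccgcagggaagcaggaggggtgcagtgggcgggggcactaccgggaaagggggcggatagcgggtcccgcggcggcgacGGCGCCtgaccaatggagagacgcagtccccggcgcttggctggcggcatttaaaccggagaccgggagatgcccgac
Id3: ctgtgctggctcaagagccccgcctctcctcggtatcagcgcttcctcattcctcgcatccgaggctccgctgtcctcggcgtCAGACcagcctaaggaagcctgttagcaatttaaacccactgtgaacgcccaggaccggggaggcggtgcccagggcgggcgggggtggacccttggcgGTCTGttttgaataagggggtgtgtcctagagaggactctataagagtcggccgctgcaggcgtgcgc

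The Grem1 window held 1 GGCGCC, 1 CAGAC and 1 AGGTCA (read as TGACCT on the printed strand), with no overlap between them. The Id3 window held 2 CAGAC matches, 1 on each strand, and the Bmper window held none of the 4 motifs. Of 32851 promoter windows of the same length, 9.59% held GGCGCC, 42.2% CAGAC, 14.0% AGGTCA and 11.8% AGTTCA. A match describes the letters of the window and is not a measured site. The windows were rich in G and C, at 71.6% for Bmper, 72.0% for Grem1 and 62.8% for Id3.

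The inhibitors were next. In B6, 1 of the 10 members was called with BMS493 (higher), where 0.423% of all genes tested were called, 0.0752% higher and 0.347% lower. Of the members 4 had an unadjusted p under 0.05 there, against 9.11% of all genes. This was Bmper, a secreted BMP-binding protein made by endothelial cells among others. It measured 46.5, 40.8, 45.0 and 47.4 CPM in B6 controls and 48.6, 60.8, 67.8 and 63.0 CPM with BMS493. The groups did not overlap, although replicate 1 of the treated group was only slightly above the highest control. The log2 fold change was 0.42 (SE 0.09, adjusted p = 0.0327), 1.34-fold. The call was near the threshold. It was lost without any 1 of the 4 controls or of BMS493 replicates 2, 3 and 4 (log2 fold change 0.36 to 0.45, adjusted p = 0.0662 to 0.188), and also with only the 8 B6 libraries in the fit (0.42, adjusted p = 0.144) and with 1 of the strand columns (0.31, adjusted p = 0.380). It held without BMS493 replicate 1, at 0.51 (adjusted p = 0.00168).

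In A/J, Bmper measured 44.9, 45.5, 40.6 and 37.7 CPM in controls and 38.2, 44.4, 43.6 and 47.3 CPM with BMS493. These groups overlapped throughout (log2 fold change 0.04, SE 0.09, adjusted p = 1). The difference between the effects in the strains was -0.38 (SE 0.13), with an unadjusted p of 0.00673 and an adjusted p of 0.999, so it was not shown to differ. Averaged over the strains Bmper was at 0.23 (SE 0.06) and not called (adjusted p = 0.0800). That passed under DESeq2 (0.0448), without the filter (0.00656), with 1 of the strand columns (0.0049) and without B6 BMS493 replicate 1 (0.00725). Among the other alternatives its adjusted p reached 0.598, and in leave-one-out fits 0.205. Among BMS493 lungs, Bmper had a lower level in the A/J group, at -0.47 (SE 0.09, adjusted p = 0.000472), and no library of the 8 overlapped. That call held in all 8 leave-one-out fits and was -0.41 (adjusted p = 0.00179) without B6 BMS493 replicate 3. In controls the strains differed in Bmper by -0.09 (SE 0.09, adjusted p = 0.573). The endothelium markers, such as Pecam1 and Cdh5, were lower in A/J in both treatments. With BMS493, 9 of the 10 were called lower in A/J and their summed level was 957 to 1151 CPM against 1248 to 1565 CPM in B6. In controls 7 of 10 were called lower, with sums of 978 to 1168 CPM in A/J and 1350 to 1464 CPM in B6. Other lists also held calls between the strains. With BMS493, 4 of 8 distal and 3 of 5 tested proximal epithelium genes were lower in A/J, and 3 of 6 neural genes were higher. Of 6 mesothelium genes 3 were higher and 2 lower. The part of these cells in the Bmper values was not tested.

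Bambi, the kinase-less decoy receptor, was the 1 member of 10 called with BMS493 in A/J (lower), where 0.486% of all genes were called, 0.0637% higher and 0.423% lower. Of the members 3 had an unadjusted p under 0.05 in A/J, against 6.23% of all genes. It measured 74.3, 71.6, 74.8 and 74.8 CPM in A/J controls and 57.6, 62.8, 53.8 and 59.3 CPM with BMS493. The groups were far apart relative to their spread, 73.9 ± 1.56 against 58.3 ± 3.75 CPM (SD, n = 4 each). The log2 fold change was -0.34 (SE 0.07, adjusted p = 0.0163), 1.27-fold lower. The call was lost without A/J control replicate 1 (-0.34, adjusted p = 0.0617), without BMS493 replicate 1 (-0.33, adjusted p = 0.0645) and without BMS493 replicate 3 (-0.30, adjusted p = 0.115).

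In B6, Bambi measured 65.3, 65.4, 67.3 and 63.3 CPM in controls and 55.0, 53.1, 67.0 and 53.4 CPM with BMS493. Replicate 3 of the treated group lay among the controls while the other 3 were below all of them. The log2 fold change was -0.20 (SE 0.07, adjusted p = 0.334) with that library and -0.28 (adjusted p = 0.0261) without it. Averaged over the strains, Bambi fell by 0.27 on the log2 scale (SE 0.05, adjusted p = 0.00294), and by 0.31 without B6 BMS493 replicate 3 (adjusted p = 2.69e-05). This averaged call held in all 16 leave-one-out fits and in the other alternatives run. The difference between the strains' effects was -0.14 (SE 0.10, adjusted p = 0.999), and -0.06 without B6 BMS493 replicate 3 (adjusted p = 0.995). Of the 8 smooth muscle markers, 3 were also called lower in the averaged comparison. Their summed level was 1492 to 1585 CPM in control and 1275 to 1514 CPM in BMS493 lungs of B6, and 1226 to 1508 CPM and 1158 to 1338 CPM in those of A/J. Their part in the Bambi values was not tested.

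Grem1, a secreted antagonist that binds BMP2, BMP4 and BMP7, had the lowest counts of the members and the widest errors. It measured 1.08, 1.16, 2.08 and 0.918 CPM in B6 controls and 2.42, 1.86, 1.20 and 1.55 CPM in B6 with BMS493, which overlapped. In A/J it measured 1.78, 1.56, 1.37 and 1.25 CPM in controls and 2.41, 2.68, 3.35 and 4.33 CPM with BMS493. The A/J groups did not overlap, and the log2 fold change there was 1.09 (SE 0.27), 2.13-fold, which was not called (adjusted p = 0.0759). It passed under DESeq2 (adjusted p = 0.0156), without the filter (0.0156) and with only the A/J libraries in the fit (0.0272). Among the other alternatives its adjusted p reached 0.506. It passed in 0 of the 8 leave-one-out fits (adjusted p = 0.0685 to 0.306). Averaged over the strains it was 0.76 (SE 0.20, adjusted p = 0.0512), which passed under DESeq2 (0.0144), without the filter (0.0155) and at a mean CPM of at least 1 (0.0493). It also passed without B6 BMS493 replicate 3 (0.82, adjusted p = 0.0248), B6 control replicate 3 (0.92, adjusted p = 0.0153) or A/J BMS493 replicate 1 (0.82, adjusted p = 0.0456). These were 3 of the 16 leave-one-out fits, where the averaged adjusted p reached 0.130. Among the other alternatives it reached 0.321. Among BMS493 lungs Grem1 was higher in A/J than in B6 at 0.84 (SE 0.27, adjusted p = 0.0267), although the groups overlapped by a single value. That call was lost without B6 BMS493 replicates 2, 3 or 4 or A/J BMS493 replicates 3 or 4 (0.66 to 0.86, adjusted p = 0.0501 to 0.123). With 1 of the strand columns it was 0.52 (adjusted p = 0.332).

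Nog, the secreted antagonist noggin, and Smad6, which blocks SMAD1 and its relatives inside the cell, were called in no comparison. Nog in controls ranged from 8.11 to 10.8 CPM (B6) and from 8.45 to 12.2 CPM (A/J), and with BMS493 from 8.44 to 12.7 CPM (B6) and from 7.89 to 10.1 CPM (A/J), all overlapping. Smad6 ranged from 48.3 to 52.1 CPM in B6 controls and from 39.99 to 48.0 CPM in A/J controls. These ranges did not overlap, but the difference of -0.15 (SE 0.09) was not called (adjusted p = 0.306). With BMS493 Smad6 measured 45.3 to 48.9 CPM in 3 B6 libraries and 65.6 CPM in replicate 3, and 40.5 to 49.5 CPM in A/J.

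**Figure D2:**
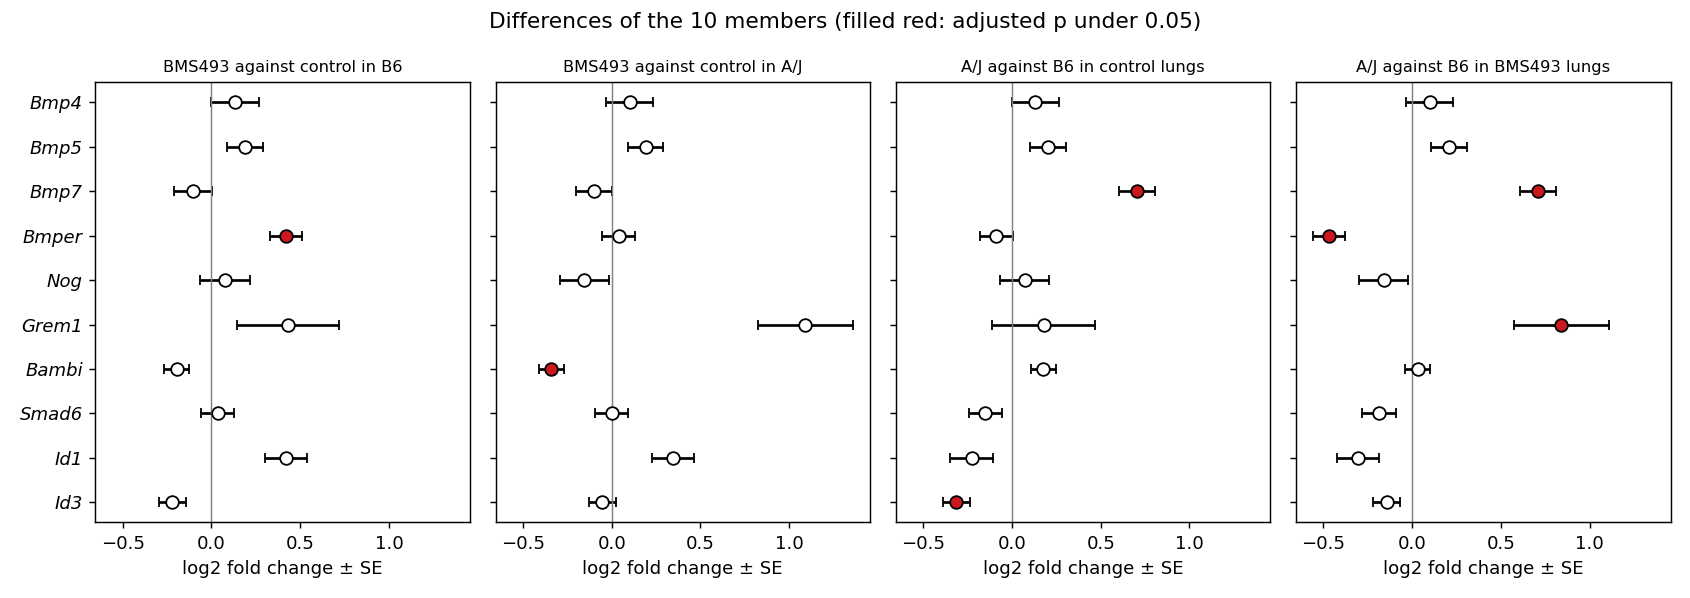
log2 fold change ± SE of the 10 members in 4 comparisons, from edgeR fitted to all 16 libraries. Filled points passed an adjusted p of 0.05. Bmper in B6 and Bambi in A/J are the members called with BMS493, and Bmp7 is called between strains in both treatments.

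The targets were last. Averaged over the strains, 2 of the 10 members were called with BMS493, 1 higher (Id1) and 1 lower (Bambi), where 1.37% of all genes tested were called, 0.278% higher and 1.09% lower. An unadjusted p under 0.05 was reached by 6 members, against 10.8% of all genes. The members were chosen with earlier results of these data known, so such counts, here and within each strain, are descriptions only. Id1, a direct BMP target, measured 52.3, 43.1, 43.8 and 56.4 CPM in B6 controls and 50.7, 71.2, 83.8 and 55.8 CPM in B6 with BMS493. In A/J it measured 41.4, 42.6, 43.6 and 38.9 CPM in controls and 53.6, 56.0, 49.3 and 52.8 CPM with BMS493. The groups overlapped in B6 and did not in A/J. The averaged log2 fold change was 0.38 (SE 0.08, adjusted p = 0.0222), 1.30-fold. It was 0.42 (SE 0.12, adjusted p = 0.181) in B6 and 0.35 (SE 0.12, adjusted p = 0.429) in A/J, neither called on its own. In B6 it passed under DESeq2 (adjusted p = 0.0498) and without the filter (7.99e-05), and in A/J without the filter (0.00312) and with only the A/J libraries in the fit (0.00759). The B6 difference was 0.53 (adjusted p = 0.0135) without BMS493 replicate 1, which had the lowest treated value, and 0.28 (adjusted p = 0.359) without replicate 3, which had the highest.

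Without B6 BMS493 replicate 3, which had the highest Id1 value, the averaged difference was 0.31 (adjusted p = 0.0187). The averaged call was lost without B6 control replicate 2 or 3, B6 BMS493 replicate 2, A/J control replicate 1 or 4 or A/J BMS493 replicate 2 (0.35 to 0.38, adjusted p = 0.0520 to 0.0670, the last without A/J control replicate 4). It was also lost with the replicate number as a block in the fit (0.38, adjusted p = 0.0607). Of the 10 endothelium markers, 0 were called in the averaged comparison with edgeR and 0 with DESeq2, 1 had an unadjusted p under 0.05, and their median log2 fold change was -0.05. B6 BMS493 replicates 2 and 3, which had the highest Id1 values, had distal epithelium sums of 2739 and 2039 CPM (B6 controls 1584 to 1782). Their proximal epithelium sums were 72.0 and 64.9 CPM (B6 controls 46.1 to 56.7). Mesothelium sums, among others, were lower, at 88.4 and 104 CPM (B6 controls 133 to 139). The part of these cells in the Id1 values was not tested.

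Id3, the sister target of Id1, measured 169.7, 164.2, 143.9 and 155.1 CPM in B6 controls and 123.8, 132.8, 143.9 and 142.8 CPM with BMS493. The highest treated and the lowest control library were equal to 3 digits. The log2 fold change was -0.22 (SE 0.08, adjusted p = 0.304) in B6 and -0.05 (SE 0.08, adjusted p = 1) in A/J, where Id3 measured 124.4, 131.5, 142.8 and 110.4 CPM in controls and 130.8, 127.1, 108.7 and 124.7 CPM with BMS493. Between control strains Id3 was lower in A/J at -0.31 (SE 0.08, adjusted p = 0.00442), 1.24-fold, and no library overlapped. That call held in all 8 leave-one-out fits. With BMS493 the strains differed by -0.14 (SE 0.08, adjusted p = 0.199). The lower endothelium sums of A/J controls, given above with Bmper, stand beside this difference, and their part in it was not tested.

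The ratio of Id1 to Id3 within a library does not depend on scaling between libraries. It was taken up after the values were seen and is given as a description. Id1 counts were 26.2% to 36.3% of Id3 counts in B6 controls and 30.5% to 35.2% in A/J controls. With BMS493 they were 39.1% to 58.2% in B6 and 41.0% to 45.4% in A/J. All 8 BMS493 libraries lay above all 8 controls.

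**Figure D3:**
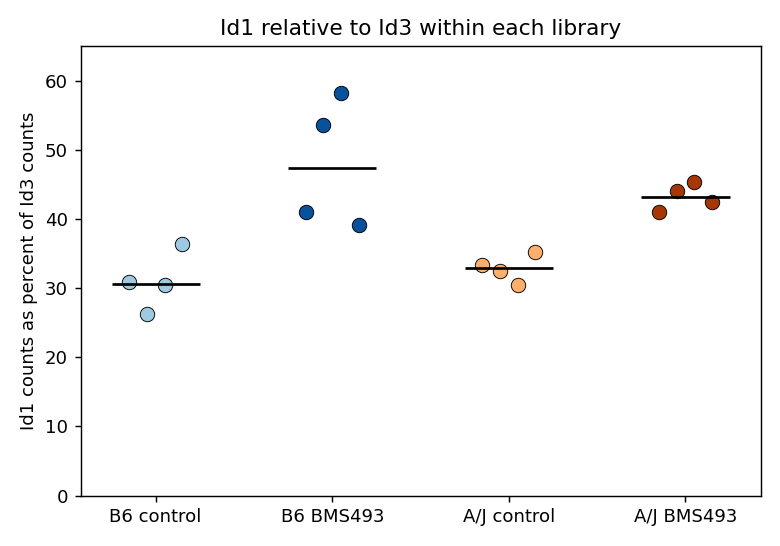
Id1 counts as a percentage of Id3 counts in each of the 16 libraries (linear axis from 0). Points are libraries and lines are group medians, which were 30.6% (B6) and 32.9% (A/J) for controls and 47.3% (B6) and 43.2% (A/J) with BMS493.

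The comparisons between strains called 2 members in controls, Bmp7 (higher in A/J) and Id3 (lower), where 16.9% of all genes were called, 7.04% higher and 9.84% lower. In BMS493 lungs 3 were called, Bmp7 and Grem1 (higher) and Bmper (lower), where 20.0% of all genes were called, 7.93% higher and 12.0% lower. Counts of 2 and 3 of 10 are near those backgrounds. An unadjusted p under 0.05 was reached by 3 members in controls, against 29.0% of all genes, and by 4 with BMS493, against 31.4%. Bambi in controls was at 63.3 to 67.3 CPM in B6 and at 71.6 to 74.8 CPM in A/J, without overlap, and the difference of 0.18 (SE 0.07) was not called (adjusted p = 0.0845). Bmp5 at 0.21 (SE 0.10, adjusted p = 0.184) and Id1 at -0.23 (SE 0.12, adjusted p = 0.225) were not called in controls either. With only the 8 control libraries in the fit all of these passed, Bambi at 0.18 (adjusted p = 0.0217), Bmp5 at 0.21 (0.0434) and Id1 at -0.22 (0.0497), and Id1 also without the filter (0.0424). The Bmp5 count without strand leaves out fragments shared with Gm26903. From both strand columns Bmp5 averaged 97.7 CPM in B6 and 102.9 CPM in A/J controls. Across the alternatives that kept all libraries compared, its difference ranged from 0.07 to 0.21 (adjusted p = 0.0434 to 0.698). The highest adjusted p among these was 0.188 for Bambi and 0.660 for Id1. In BMS493 lungs Id1 differed by -0.30 (SE 0.12, adjusted p = 0.0805), which passed without the filter (0.00275). Leaving out 1 B6 BMS493 library gave -0.41 (adjusted p = 0.00709) for replicate 1, -0.37 (adjusted p = 0.0362) for replicate 4 and -0.17 (adjusted p = 0.265) for replicate 3.

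The test of the difference between the BMS493 effects in the strains called 0 of the 10 members with edgeR and 0 with DESeq2, and 1 (Bmper) had an unadjusted p under 0.05. Of all genes 0.00579% were called in that test and 3.68% had an unadjusted p under 0.05.

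A further 69 genes of the pathway were grouped by role, of which 57 passed the filter. With BMS493 edgeR called 0 of these 57 in B6 and 0 in A/J (0.423% and 0.486% of all genes), and DESeq2 called 0 and 1. At an unadjusted p under 0.05 there were 8 in B6, where 9.11% of all genes passed, and 9 in A/J, where 6.23% did. Averaged over the strains 1 was called, lower, where 1.37% of all genes were called and 1.09% were lower, and DESeq2 called 3. This was Scube3, a secreted co-receptor that enhances BMP signalling, at -0.35 (SE 0.07, adjusted p = 0.0051), and the call was lost with 1 of the strand columns (-0.28, adjusted p = 0.0907). Scube3 averaged 23.5 ± 1.71 and 18.9 ± 2.21 CPM in B6 control and BMS493 lungs and 30.2 ± 2.88 and 23.3 ± 1.87 CPM in the A/J groups (SD, n = 4 each). The median averaged log2 fold change was 0.01 over the 57 and 0.07 over the 10 members, against 0.00 over all genes tested. At an unadjusted p under 0.05, 4 of the 11 tested receptors and co-receptors, 5 of the 16 inhibitors, 2 of the 6 ligands, 1 of the 9 targets, 1 of the 4 genes of ligand processing and 0 of the 11 intracellular genes passed, where 10.8% of all genes did.

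Between control strains 15 of the 57 were called (in A/J 8 were higher and 7 lower), against the 16.9% of all genes given above. Among the 6 tested ligands, Gdf6 (1.01, adjusted p = 0.00484) and Gdf10 (0.90, adjusted p = 0.000484) were higher in A/J. Bmp3, a ligand known to oppose the other BMPs, was lower there at -0.74 (adjusted p = 1.22e-05), with 49.99 ± 4.96 CPM in B6 and 29.9 ± 4.18 CPM in A/J controls (SD, n = 4 each). Of the antagonists, follistatin (Fst, 1.00, adjusted p = 0.00121) and Chrdl1, a chordin-like protein (0.67, adjusted p = 0.00615), were higher in A/J. The Chrdl1 call was lost with 1 of the strand columns (0.57, adjusted p = 0.0693). Dand5, another secreted antagonist, was lower at -1.36 (adjusted p = 0.00163). These included genes of low level. Means in B6 and A/J controls were 2.55 and 0.969 CPM for Dand5, 1.64 and 3.29 CPM for Fst and 2.07 and 4.16 CPM for Gdf6.

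Of the 11 receptors and co-receptors 4 were called, of which A/J had 2 higher and 2 lower. Acvr2b, a type II receptor, was higher in A/J at 0.45 (adjusted p = 0.00384), as was Scube3 at 0.37 (adjusted p = 0.00756). The targets Id4 (-0.63, adjusted p = 0.000343) and Atoh8 (-0.63, adjusted p = 0.00129) were lower in A/J. They were the 2 called of the 9 tested targets, of which 5 had values below 0 and 4 above. In BMS493 lungs 13 of the 57 were called (in A/J 8 were higher and 5 lower), against 20.0% of all genes, 7.93% higher and 12.0% lower. Chrdl1 (1.18, adjusted p = 1.6e-05), Fst (0.99, adjusted p = 0.00197), Gdf6 (1.03, adjusted p = 0.00361) and Gdf10 (0.72, adjusted p = 0.0047) were higher there too. The Gdf6 groups overlapped, at 1.27 to 3.14 CPM in B6 and 3.08 to 5.34 CPM in A/J. Sost, which encodes the antagonist sclerostin, was higher at 1.47 (adjusted p = 0.00319), from means of 0.676 CPM in B6 and 1.85 CPM in A/J. Bmp3 (-0.46, adjusted p = 0.00244), Dand5 (-1.10, adjusted p = 0.00637) and Hey1 (-0.48, adjusted p = 0.00936), a transcription factor gene induced by BMP and Notch signals, were lower. Acvrl1, a type I receptor of endothelial cells, was lower at -0.61 (adjusted p = 0.0092), and in controls, where it is named after its values were seen, at -0.60 (adjusted p = 0.0129). The lower endothelium sums of A/J stand beside both, and their part was not tested. With 1 of the strand columns Gdf10 (0.62, adjusted p = 0.0764) and Dand5 (-0.91, adjusted p = 0.0591) lost these calls in BMS493 lungs, and Acvrl1 (-0.61, adjusted p = 0.0558) lost its call there with only the libraries compared in the fit. Map3k7, the kinase TAK1 of the branch that runs beside the SMADs, was higher by 0.22 (adjusted p = 0.00954).

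**Figure D4:**
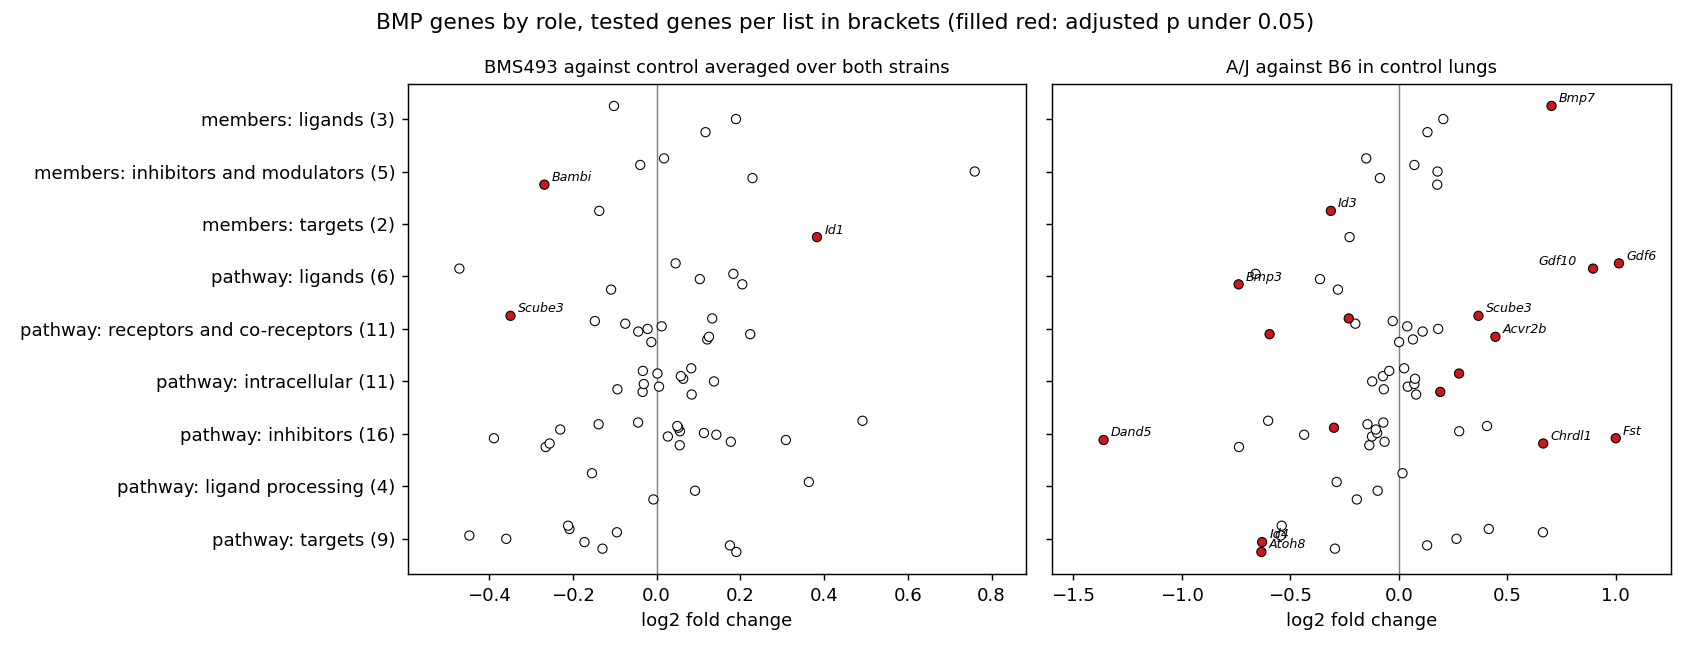
log2 fold changes of the 10 members and the 57 further tested BMP genes by role, for BMS493 against control averaged over both strains (left) and A/J against B6 in controls (right). Each point is 1 gene, filled points passed an adjusted p of 0.05, and names are given for members and at most 10 pathway genes of smallest p. On the left Id1, Bambi and Scube3 passed; on the right 17 genes passed in both directions.

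The genes most like each member were listed by the Pearson r of log2 CPM over the 16 libraries, with the r of deviations from the group means beside it. These are descriptions over libraries that share strain, treatment and composition. Bmp4 was most like Id2, another Id gene, at r = 0.885 over libraries and 0.876 for deviations. Smad6 was most like Rasip1 (0.927 and 0.911), Notch4 (0.917 and 0.906) and Megf6 (0.908 and 0.950), the first 2 of which are known from endothelium. Id1 was most like Igfbp7 (0.903 and 0.857), and Id3 had the smooth muscle actin gene Acta2 among its nearest 3 (0.884 and 0.739).

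For Bmp7 the nearest gene was Gatm (0.968 and 0.733), for Bmper Ptges (0.896 and 0.732) and for Nog Ppfibp1 (0.832 and 0.875). For Bambi it was Gas1 (0.881 and 0.447, the latter 0.0572 without B6 BMS493 replicate 3). For Grem1 it was Polr3a (0.827 and 0.515) and for Id3 Rflna (0.893 and 0.719). The heparan sulphate enzyme gene Hs6st3 was among the nearest 3 of Bmp5 (0.909 and 0.856) and Grem1 (0.823 and 0.548). For Grem1 the latter was 0.415 without B6 BMS493 replicate 3. Among the members themselves, the deviations of Bambi and Smad6 were most alike (r = 0.810) and those of Grem1 and Id1 most opposed (r = -0.575). Without B6 BMS493 replicate 3 these were 0.471 and -0.44, and Bmp5 and Smad6 were most alike (0.649). With all libraries, both Bambi and Smad6 had their highest value of the B6 BMS493 group in replicate 3.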

How the data were processed

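RNA of 16 fetal lung libraries was sequenced, and the authors deposited raw counts per gene for each library. Per the submitters' processing notes FastQC, cutadapt and STAR were used with the build GRCm39, and versions and annotation are not given in the sources used here. Each deposited file holds counts without strand and counts for each strand. Counts without strand were used, since the first strand column held 51.0% to 52.0% of the stranded counts. Fragments outside genes (unmapped, multimapping, no feature, ambiguous; 23.1% to 28.3% of a library) were left out. Symbols and exon lengths came from GENCODE M21.

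A filter (filterByExpr) left 17276 genes. edgeR 4.0.16 in R 4.3.3 was fitted to all 16 libraries with TMM scaling, 1 coefficient per group and the robust quasi-likelihood test (12 residual degrees of freedom). All p-values are two-sided, and adjusted p-values are Benjamini-Hochberg over all genes tested, with calls under 0.05. SE is the log2 fold change divided by the root of the F statistic. CPM used TMM scaling, and logged CPM a prior count of 2. The 6 comparisons are BMS493 against control in each strain, their average and difference, and A/J against B6 in each treatment. The alternatives included DESeq2 1.42.0. The pipeline was tested on simulated data.

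The members and lists were chosen with earlier results of these data known. All 10 members are named. Further pathway genes are named where called, at most the 10 of smallest p for each comparison, and the 3 genes most like a member come from genes with a mean of at least 5 CPM. Marker lists covered endothelium, distal and proximal epithelium, smooth muscle, mesenchyme, mesothelium, cartilage, macrophage, erythroid, neural, heart, liver and thymus. With BMS493 averaged over the strains edgeR called lower 3 of 8 smooth muscle genes and 1 gene each of the cartilage, mesenchyme, mesothelium and neural lists. It called 0 in the proximal and distal epithelium, macrophage, erythroid, heart and liver lists, where 1, 3, 0, 0, 1 and 0 genes had an unadjusted p under 0.05 and DESeq2 called 0. No thymus gene passed the filter.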

Additional observations from a re-analysis of the deposited data

Results flagged for a closer look

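Dixon's test for a distant value, at its 95% level, picked out 1 library in 3 of the 40 member and group combinations, and chance does so in about 1 in 20. Bambi in B6 BMS493 replicate 3 was at 67.0 CPM, high against 53.1 to 55.0 CPM in the rest of its group (gap over range 0.868). Bambi in A/J control replicate 2 was at 71.6 CPM, low against 74.3 to 74.8 CPM (0.845). Smad6 in A/J control replicate 4 was at 39.99 CPM, low against 46.7 to 48.0 CPM (0.836).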

How the results depend on the processing

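Of 1220 values of the 10 members in 6 comparisons under the alternatives, 1167 kept their side of the threshold, 25 were lost calls and 28 were gained, and no called value changed sign. For 21 of the 60 pairs of member and comparison the value was not called and within 1 SE of 0, and no direction was read from it. The count of members called in B6 (1) was 2 with DESeq2 and without the filter, 0 with 1 strand column and 0 with only the libraries compared, and 0 to 2 when each library was left out. In A/J (1) it was 2 with DESeq2, 3 without the filter and 3 with only the libraries compared, and 0 to 1 when each was left out. Averaged over the strains (2) it was 4 with DESeq2, 5 without the filter, 1 with the replicate block and 1 to 4 when each library was left out. Between control strains (2) it was 5 with only the libraries compared. Of the 57 pathway genes, those called in A/J (0) numbered 1 with DESeq2, 3 without the filter and 2 with only the libraries compared, and those called in the average (1) numbered 3, 4 and, with single strand columns, 2 and 0. Summing the strand columns, chosen after seeing the data, gave 2. Leaving out 1 library gave 0 to 1 in each strain and 1 to 2 in the average. The cause was not tested. Same-numbered libraries of different groups deviated together (r over 0.1) in 3 of 24 pairs, and 7 libraries were best matched by a library of their own number. The labels do not say whether the numbers pair the libraries. These correlations cannot settle it, as no baseline was set for them. The replicate block lost the averaged Id1 call (0.38, adjusted p = 0.0607) and no other member call. Between strains, Acvrl1 (adjusted p = 0.0558, only the libraries compared) and, with 1 strand column, Chrdl1 (0.0693), Dand5 (0.0591) and Gdf10 (0.0764) each lost a call, as did Scube3 in the average (0.0907). Of the 10 members, depth limits Grem1 most, at 14 to 86 counts per library.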
